A study of Bos taurus with 138 samples.

Results

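The polysome-bound mRNA of bovine blastocysts was compared with the whole transcriptome of blastocysts. The comparison rests on 9 of the 138 libraries of the series. 6 of them are the fractions F8, F9 and F10 of the sucrose gradients A and B, and 3 are the transcriptomes A, B and C. Adding the counts of the 3 heavy fractions of a gradient made its polysome pool, so that there were 2 pools. The blastocysts were Bos taurus embryos made in vitro from oocytes of slaughterhouse ovaries, and only the best morphological grade was kept. No genotype, strain or treatment arm distinguishes the groups. Before collection all of them were exposed to cycloheximide, which holds ribosomes on the mRNA, and their zona pellucida was removed with protease. Each gradient received a larger pool of embryos than each transcriptome, so the amount of input differs along with the kind of library. The gradients were described as biological duplicates and the transcriptomes as biological triplicates of the same collection.

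In a sucrose gradient, free RNA stays near the top, mRNA with a single ribosome (the monosome) sediments further, and mRNA that carries many ribosomes moves to the heaviest fractions. A gene whose share of reads is larger in the heavy fractions than in the whole embryo is therefore represented above average in the polysome libraries. A gene with a smaller share is represented below average there, and the share does not show where the rest of its mRNA lies. The blastocyst is the stage at which an outer epithelium, the trophectoderm, encloses a fluid-filled cavity and an inner cell mass that gives epiblast and hypoblast. Its mRNA comes almost entirely from the embryonic genome, because the stores laid down in the oocyte are largely degraded by then.

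The 6 fraction libraries held 9350529 to 10835138 expected counts, and the summed pools 29120064 to 30855559. The 3 transcriptomes were shallower, at 3269386 to 5256282. Values are given below as CPM, the counts of a gene relative to the library total, scaled with the TMM factors of edgeR. They follow the order pool A, pool B against transcriptomes A, B and C. The label blastocyst was checked against lineage markers. The keratins KRT8 and KRT18, POU5F1 and GATA6 had counts in all 5 libraries, while the hypoblast markers SOX17 and GATA4 were low in all of them. Such counts do not by themselves tell blastocysts from morulae. POU5F1, for instance, had a mean of 2322 CPM in morula pools and 1255 CPM in blastocyst pools. KRT18, an epithelial keratin of the trophectoderm, was at 9497 and 7118 CPM in the pools against 3003, 3388 and 3115 CPM. Transcriptome A stood apart in 1 respect. The summed level of 26 oocyte and maternal genes was 1809 CPM in transcriptome A, against 263 and 463 CPM in transcriptomes B and C and 302 and 272 CPM in the pools. Their comparisons with the transcriptomes are given with and without it.

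In the edgeR quasi-likelihood model, 2926 of 14612 genes were higher in the blastocyst polysome pools than in the transcriptomes at an adjusted p below 0.05 (20% of the genes tested), and 2934 were lower (20.1%). Together these were 40.1%. Scaling to library totals alone in place of TMM moved the median log2 fold change of all genes from -0.08 to -0.42 and the calls to 2377 higher and 3588 lower. Higher genes were 49.9% of the calls with TMM and 39.9% with totals. Among the genes called, 972 were more than 8-fold higher and 1328 more than 8-fold lower. Both pools lay above all 3 transcriptomes for 4408 genes (30.2%) and below all 3 for 4512 genes (30.9%). The counts below are read against these shares. Without pool B the genes called lower numbered 1910, and no other single library moved either count by more than 1.5 times. Across genes, Spearman's rho was 0.930 between the pools, 0.954 to 0.971 between transcriptomes, and 0.803 to 0.816 between a pool and a transcriptome. These are descriptions over genes that share libraries. A fold change here is relative to the bulk of genes, since neither kind of library carries an absolute scale. Libraries of this kind do not mark strand. In RefSeq the following named genes overlap another coding gene from which reads may not have been separated, namely FGF2 with NUDT6, APOA1 with APOA4, COX8B with NBAS, PSMD13 with NBAS, UQCRC2 with PDZD9, POLR1C with XPO5, UHRF1 with ARRDC5, CDT1 with APRT, SNRPD1 with ESCO1, MAP2K1 with SNAPC5, STAT2 with IL23A, TOMM70 with LNP1 and CTNNA1 with LRRTM2. In bulk embryos, fewer cells of a type and less RNA per cell cannot be told apart.

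Genes among those furthest above the transcriptome were nearly undetected in whole embryos while being plain in both pools. SOCS1, a cytokine-induced inhibitor of JAK kinases, was at 90.1 and 63.3 CPM in the pools against 0, 0 and 0.200 CPM. The 3 transcriptomes held 1 count and the pools 3559, a ratio after scaling of 1013 (exact 95% counting interval 182 to 40008). PLD6, a phospholipase of the outer mitochondrial membrane, was at 156 and 142 CPM in the pools against 3.23, 0.622 and 0.600 CPM (log2 fold change 6.76 ± 0.69 SE, adjusted p = 6.44e-08). In both genes the pools lay far above the transcriptomes and the 2 gradients were close to each other. CHPF, a chondroitin polymerising factor (log2 fold change 7.49 ± 0.92 SE, adjusted p = 7.72e-07), and RNF26, a ubiquitin ligase of the endoplasmic reticulum (log2 fold change 7.57 ± 0.96 SE, adjusted p = 1.28e-06), had the same direction. The ranking by fold change took only genes with both pools beyond all 3 transcriptomes, so this separation follows from the choice. For 3 further genes the transcriptomes together held 1 to 3 counts. The scaled ratio was 355 (exact 95% counting interval 63.6 to 14025) for POLD4, the small subunit of DNA polymerase delta, 465 (exact 95% counting interval 83.4 to 18397) for the zinc finger gene ZNF584 and 159 (exact 95% counting interval 54.4 to 772) for MFSD12, a transporter of lysosomes. RAB17, a GTPase of apical trafficking in epithelia, was at 169 and 119 CPM in the pools against 1.47, 1.66 and 1.0 CPM (log2 fold change 6.71 ± 1.13 SE, adjusted p = 7.85e-05). SMIM7, a small membrane protein, was at 261 and 281 CPM in the pools against 62.6, 71.3 and 63.4 CPM (log2 fold change 2.04 ± 0.35 SE, adjusted p = 6.04e-05).

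At the other end stood genes whose mRNA was plain in whole embryos and all but missing from polysomes. GPR171, a G protein-coupled receptor that lies inside MED12L in RefSeq, had no count in either pool and 16.2, 28.4 and 19.8 CPM in the transcriptomes, so that it was at least 341-fold lower (3 counts over both pools taken as the floor). BAZ2B, a bromodomain protein, was at 0.0435 and 0 CPM in the pools against 14.7, 25.9 and 13.2 CPM, with 1 count in the pools and a scaled ratio of 847 (exact 95% counting interval 151 to 33592) in favour of the transcriptomes. SHTN1, a regulator of the actin clutch in axons, was at 0.131 and 0 CPM in the pools against 14.4, 34.4 and 29.8 CPM, a ratio of 426 (exact 95% counting interval 145 to 2077). All 3 transcriptomes lay above both pools in each case, as the rule that named these genes required. CCDC152 was at 4.96 and 0.596 CPM in the pools against 198, 526 and 536 CPM (log2 fold change -7.24 ± 0.94 SE, adjusted p = 2.01e-06). It overlaps SELENOP, the gene of the selenium transport protein, and reads of the pair may not have been separated. PHYKPL, a lyase of lysine breakdown, had the same direction (log2 fold change -7.23 ± 1.44 SE, adjusted p = 0.000308), with 13.7 CPM in transcriptome B as its lowest whole-embryo value. OOSP2, BCAR4 and CCDC181 also ranked here and are described with the oocyte genes, since transcriptome A set much of their level.

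Genes of the trophectoderm went both ways, with keratins and transporters among the higher ones. For this lineage 10 of 32 members tested were higher, 3 lower and 19 did not pass (5 lower with library totals), with a median log2 fold change of 0.43 beside -0.08 over all genes. Medians given for other groups below are of the same quantity. KRT19, an epithelial keratin, was at 1274 and 1080.2 CPM in the pools against 91.7, 193 and 132 CPM (log2 fold change 3.08 ± 0.34 SE, adjusted p = 1.84e-07). KRT7 (log2 fold change 3.01 ± 0.57 SE, adjusted p = 0.000189) and KRT8 (log2 fold change 1.79 ± 0.49 SE, adjusted p = 0.00564) had the same direction. SLC7A5, the amino acid transporter LAT1, was at 1261 and 1134 CPM in the pools against 196, 137 and 177 CPM (log2 fold change 2.82 ± 0.50 SE, adjusted p = 0.000109). In these genes both pools lay above every transcriptome.

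Among trophectoderm transcription factors the direction was mixed. TEAD4, which opens the trophectoderm programme with its cofactors, was at 170.2 and 135 CPM in the pools against 17, 22.2 and 17 CPM (log2 fold change 3.02 ± 0.84 SE, adjusted p = 0.00721). Its cofactor VGLL1 was at 87.3 and 48.1 CPM in the pools against 2.06, 3.11 and 3.2 CPM (log2 fold change 4.59 ± 1.07 SE, adjusted p = 0.00464). CDX2, the caudal factor that keeps trophectoderm identity, was at 39 and 20.3 CPM in the pools against 7.94, 6.22 and 7.0 CPM (log2 fold change 2.07 ± 0.64 SE, adjusted p = 0.0129). Both pools lay above every transcriptome in all 3. GATA2, a zinc finger factor of trophoblast genes, was at 61.6 and 60.4 CPM in the pools against 315, 472 and 438 CPM (log2 fold change -2.74 ± 0.46 SE, adjusted p = 5.15e-05). GATA3 was lower as well (log2 fold change -1.40 ± 0.52 SE, adjusted p = 0.0357). TFAP2C was at 119.8 and 180.3 CPM in the pools against 355, 451 and 468 CPM and did not pass the threshold (log2 fold change -1.50, adjusted p = 0.0842), and both pools lay below every transcriptome as they did for the GATA factors. PTGS2, the inducible prostaglandin synthase, was lower at 108 and 144 CPM in the pools against 243, 835 and 711 CPM (log2 fold change -2.24 ± 0.61 SE, adjusted p = 0.00522). The calls lost when 1 library was left out included those of KRT8 (without pool A), CDX2 (without pool A), GATA3 (without any 1 of the 5 libraries) and PTGS2 (without pool A). Other higher members lost the call as well. Higher members numbered 9 without transcriptome A and 9 without transcriptome C. Lower members numbered 1 without pool A. IFNT2, a gene of interferon tau, the pregnancy signal of ruminants, was at 6.96 and 5.57 CPM in the pools against 15.6, 58.7 and 19.6 CPM and did not pass (log2 fold change -2.32, adjusted p = 0.184). Interferon tau genes are near-identical copies that can share reads. The summed level of the 33 trophectoderm symbols was 21674 and 16963 CPM in the pools and 7066, 9235 and 8578 CPM in the transcriptomes, and along the gradients it was 5831 and 5094 CPM in F3 and 26096 and 20729.5 CPM in F10 of gradients A and B. The summed level was thus highest at the heavy end of both gradients. KRT18 made up a large part of the sum in the pools, so it does not describe each member. Of the 32 members tested, 1 was called higher in polysome than in monosome pools, beside 0.625% of all genes in that comparison. On simulated counts the comparison called only 8.82% of genes changed by 3 on the log2 scale, so few calls could be made. Single fractions were scaled with factors over all libraries, so their levels are not on exactly the scale of the pools.

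**Figure D1:**
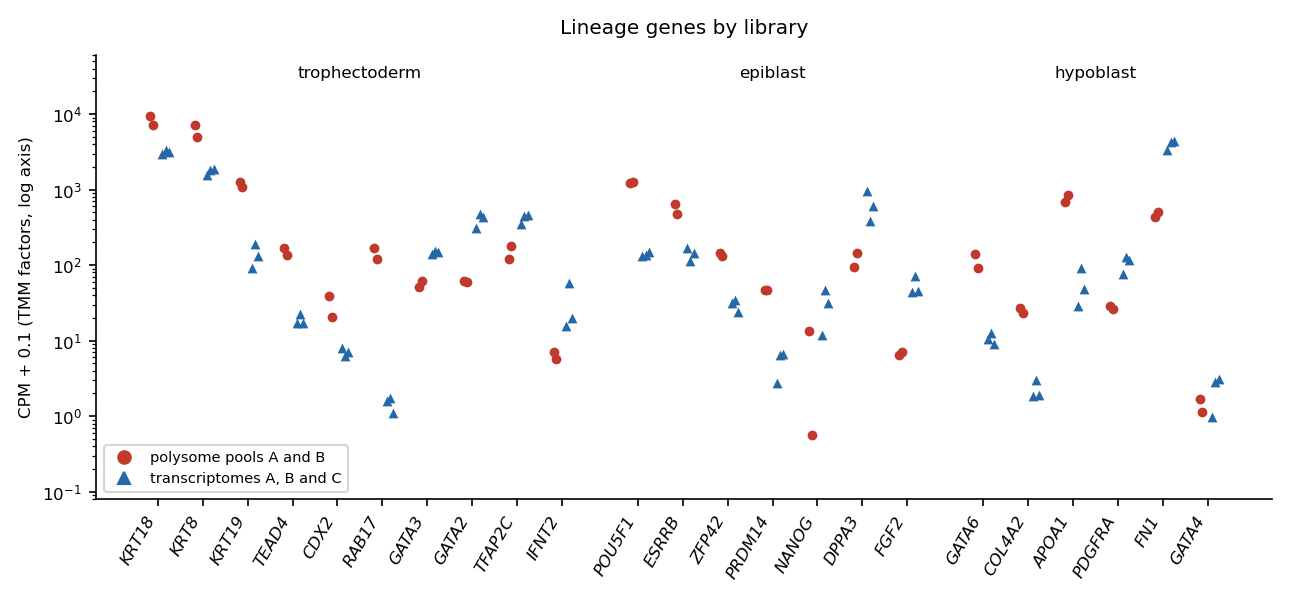
CPM (TMM factors, 0.1 added, log axis) of lineage genes in the 2 polysome pools (circles) and the 3 transcriptomes (triangles) of blastocysts. Keratins, TEAD4, CDX2, RAB17, POU5F1 and GATA6 had both pools above all 3 transcriptomes, while GATA2, GATA3, DPPA3, FGF2, PDGFRA and FN1 had both pools below.

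Of the genes of epiblast and pluripotency, 9 of 24 members tested were higher, 4 lower and 11 did not pass (median 1.20). POU5F1, the POU factor also called OCT4, was at 1241 and 1269.6 CPM in the pools against 133, 138 and 148 CPM (log2 fold change 3.17 ± 0.37 SE, adjusted p = 4.03e-07). The pools differed little from each other, and so did the transcriptomes, with the pools far above them. PRDM14, a repressor of differentiation genes, was at 46.2 and 46.9 CPM in the pools against 2.65, 6.42 and 6.6 CPM (log2 fold change 3.13 ± 0.78 SE, adjusted p = 0.00256). DPPA2, a small nuclear protein of pluripotent cells, was at 49.5 and 66.6 CPM in the pools against 9.41, 16.4 and 11.2 CPM (log2 fold change 2.23 ± 0.63 SE, adjusted p = 0.00722). The transcriptomes stayed below both pools for these factors. ESRRB, an orphan nuclear receptor, was at 641 and 479.7 CPM in the pools against 169, 112 and 144 CPM (log2 fold change 1.98 ± 0.72 SE, adjusted p = 0.0300). ZFP42, the marker REX1, was at 146 and 132 CPM in the pools against 31.2, 34.2 and 23.6 CPM (log2 fold change 2.22 ± 0.68 SE, adjusted p = 0.0117). The opposite direction was seen for 4 members, DPPA3, DPPA4, KLF5 and FGF2. DPPA3, a maternal protein also called STELLA, was at 93.5 and 144 CPM in the pools against 946, 382 and 598 CPM (log2 fold change -2.43 ± 0.39 SE, adjusted p = 2.53e-05). The growth factor gene FGF2 was at 6.27 and 7.06 CPM in the pools against 43.8, 72.7 and 45.2 CPM (log2 fold change -3.02 ± 0.42 SE, adjusted p = 4.99e-06). NANOG, the homeobox factor of the epiblast, was at 13.2 and 0.468 CPM in the pools against 11.8, 46.4 and 31 CPM, with pool B far below pool A, and did not pass (log2 fold change -2.12, adjusted p = 0.0551). FGF4, which signals from epiblast to hypoblast, had no count in any transcriptome and 3.22 and 1.96 CPM in the pools, at least 11.4-fold higher. Calls lost when 1 library was left out included those of ESRRB (without any 1 of the 5 libraries), ZFP42 (without transcriptome C, up to adjusted p = 0.0501) and FGF4 (without pool A or any 1 transcriptome). Other higher members lost the call as well. Higher members numbered 5 without transcriptome A, 6 without transcriptome B and 4 without transcriptome C.

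Of the hypoblast genes, 3 of 25 members tested were higher, 3 lower and 19 did not pass (median 0.03, which turned negative in 4 of the alternative settings). GATA6, the zinc finger factor that opens the hypoblast programme, was at 140.1 and 92.6 CPM in the pools against 10.6, 12.4 and 8.8 CPM (log2 fold change 3.45 ± 0.65 SE, adjusted p = 0.000187). The basement membrane collagen gene COL4A2 was at 27 and 23 CPM in the pools against 1.76, 2.9 and 1.8 CPM (log2 fold change 3.52 ± 0.73 SE, adjusted p = 0.000461). APOA1, a lipoprotein of the visceral endoderm, was at 679 and 838 CPM in the pools against 29.1, 91.2 and 47.8 CPM (log2 fold change 3.76 ± 1.05 SE, adjusted p = 0.00652). All 3 had pools clear of the transcriptomes. In the other direction, FN1, the matrix protein fibronectin, was at 429.9 and 504 CPM in the pools against 3379, 4299 and 4366 CPM (log2 fold change -3.10 ± 0.88 SE, adjusted p = 0.00695). PDGFRA, the receptor that marks hypoblast precursors, was at 28.5 and 26.4 CPM in the pools against 76.7, 129 and 118 CPM (log2 fold change -1.98 ± 0.45 SE, adjusted p = 0.00108). SOX17 and GATA4 lay below 4 CPM in every library and did not pass the threshold. The third lower member, CUBN, had 3 counts in all 5 libraries together. The calls lost when 1 library was left out were those of FN1 (without pool A or pool B, up to adjusted p = 0.0616) and CUBN (without pool A or pool B or transcriptome B or transcriptome C, up to adjusted p = 0.158), and lower members numbered 1 without pool A and 1 without pool B.

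Maternal and oocyte genes leaned to the transcriptome, and it was in this group that transcriptome A stood apart. Here 4 of 26 members tested were higher, 11 lower and 11 did not pass (median -1.82). Without transcriptome A the lower members numbered 7, the higher ones 5, and the median was -0.80. OOSP2, an oocyte-secreted protein, was at 0.0435 and 0 CPM in the pools against 652, 15.5 and 33.6 CPM (adjusted p = 4.94e-05, and 8.34e-05 without transcriptome A). As the pools held 1 count, the scaled ratio over all libraries was 8646 (exact 95% counting interval 1550.3 to 341629), and without transcriptome A 1149.8 (204 to 45599.5). BTG4, the adaptor that sends maternal mRNA to deadenylation, was at 6.22 and 4.81 CPM in the pools against 667, 21.3 and 143 CPM (log2 fold change -5.65 ± 1.18 SE, adjusted p = 0.000530, and -3.90 with adjusted p = 0.00328 without transcriptome A). Transcriptome A exceeded transcriptome B many times over in both genes, yet the 2 other transcriptomes also lay above the pools.

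Some oocyte genes had no count in polysomes. ZP4, a zona protein, was at 25.9, 5.18 and 5.4 CPM in the transcriptomes and at 0 in both pools, at least 164-fold lower (82 without transcriptome A). WEE2, the kinase that holds the oocyte in meiotic arrest, was at least 50.4-fold lower (22.1 without it), and BCAR4, an oocyte gene of cattle outside the list, at least 408-fold lower (96.2 without it). Their adjusted p without transcriptome A was 0.000240 for ZP4, 3.28e-05 for WEE2 and 3.74e-05 for BCAR4. Their transcriptome values spread widely, from 0.600 to 8.52 CPM for WEE2 and from 1.24 to 84.4 CPM for BCAR4. ZP2 had the same direction (log2 fold change -5.81 ± 0.99 SE, adjusted p = 5.63e-05, and -4.90 with adjusted p = 0.000324 without transcriptome A). So did the oocyte linker histone H1FOO (log2 fold change -5.48 ± 1.22 SE, adjusted p = 0.00100, and -4.26 with adjusted p = 0.00903 without it). NPM2, the oocyte nucleoplasmin, was called only with transcriptome A (log2 fold change -4.72 ± 1.21 SE, adjusted p = 0.00329, and adjusted p = 0.0578 without it). CCDC181, a coiled-coil protein, was lower also without that library (log2 fold change -7.22 ± 1.40 SE, adjusted p = 0.000241, and -4.90 with adjusted p = 0.00184). Not every maternal gene had this direction. ZP3, a further zona protein, was at 48.9 and 56.8 CPM in the pools against 7.64, 5.8 and 5.6 CPM (log2 fold change 3.07 ± 0.44 SE, adjusted p = 5.87e-06). OOEP (log2 fold change 1.97 ± 0.38 SE, adjusted p = 0.000206) and PADI6 (log2 fold change 3.09 ± 0.64 SE, adjusted p = 0.000450) of the subcortical maternal complex were higher too. Without transcriptome A these were 3.21 with adjusted p = 4.42e-05 for ZP3, 2.54 with adjusted p = 1.87e-05 for OOEP and 2.97 with adjusted p = 0.00291 for PADI6. In the gradients, the summed level of the list was highest in F3, at 1389 and 868 CPM in gradients A and B, against 199 and 180.1 CPM in F10.

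Markers of cells that an embryo should not hold were low. The 20 symbols of cumulus and granulosa cells summed to 37.5 and 21 CPM in the pools and 65.3, 98.2 and 109 CPM in the transcriptomes, and in that list 4 of 18 members tested were lower and 14 did not pass (median -3.42, or -2.55 with genes at 0 in 1 group set to their bound). Of its defining markers, AMH and FSHR were below 6 CPM in every library, and PTX3 had counts in transcriptome B alone. HAS2, a hyaluronan synthase, had no count in the pools and 12.1, 2.28 and 4.2 CPM in the transcriptomes. When libraries were left out one at a time, lower members numbered 1 without pool B. Sperm genes summed to 19.1 and 11.5 CPM in the pools and 27.9, 31.5 and 22.8 CPM in the transcriptomes, with the protamine gene PRM1 at most at 2.6 CPM. The part of such cells in the other results was not tested.

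The mRNAs of oxidative phosphorylation, the mitochondrial chain that makes ATP, fell into opposite classes by genome. Its subunits come mostly from nuclear genes, translated in the cytosol and imported, and in small part from the mitochondrial genome, translated inside the organelle on its own ribosomes. Among nuclear subunits of complex I, 22 of 38 members tested were higher, 2 lower and 14 did not pass (median 1.20). The counts were 8 higher and 3 lower of 13 for complexes II and III (median 1.75), 7 and 2 of 12 for complex IV (median 1.51), and 8 and 1 of 17 for ATP synthase (median 0.97). The 20% called higher among all genes is the share to read these against. NDUFS8, an iron-sulphur subunit of complex I, was at 2507 and 2546 CPM in the pools against 168, 133 and 139.6 CPM (log2 fold change 4.10 ± 0.29 SE, adjusted p = 7.82e-10). Its neighbour in the chain, NDUFS7, was at 1847 and 1842 CPM in the pools against 135, 92 and 111 CPM (log2 fold change 4.04 ± 0.30 SE, adjusted p = 9.44e-10). The pools of both genes nearly coincided and stood far above the transcriptomes.

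Further along the chain, UQCRC1, a core protein of complex III, was at 2058 and 1467 CPM in the pools against 270.1, 188 and 235 CPM (log2 fold change 2.93 ± 0.33 SE, adjusted p = 2.83e-07). COX5B of complex IV was at 6121 and 7035 CPM in the pools against 1256, 1109 and 1194 CPM (log2 fold change 2.47 ± 0.36 SE, adjusted p = 7.17e-06). ATP5MC2, a ring subunit of ATP synthase, was at 1309 and 1386 CPM in the pools against 148, 139 and 145 CPM (log2 fold change 3.23 ± 0.33 SE, adjusted p = 5.82e-08). Both pools exceeded all transcriptomes in each. Not every nuclear subunit followed. NDUFS1, the largest subunit of complex I, was at 23.8 and 34 CPM in the pools against 162, 201 and 220.1 CPM (log2 fold change -2.75 ± 0.59 SE, adjusted p = 0.000721). UQCRC2 of complex III was at 146 and 126 CPM in the pools against 387, 271 and 381 CPM (log2 fold change -1.35 ± 0.28 SE, adjusted p = 0.000527). ATP5PB of the ATP synthase stalk was at 264 and 314 CPM in the pools against 687, 732 and 1009.9 CPM (log2 fold change -1.49 ± 0.25 SE, adjusted p = 3.85e-05). In these 3 both pools lay below all transcriptomes. The heart isoform gene COX8B was at 0 and 2.64 CPM in the pools against 68.8, 68 and 113 CPM (log2 fold change -5.97 ± 1.80 SE, adjusted p = 0.0105), with no count in pool A. Lower members numbered 1 without pool A, 1 without pool B and 1 without transcriptome A, those of complexes II and III 1 without pool A and those of complex IV 0 without pool A, 1 without pool B, 1 without transcriptome A, 1 without transcriptome B and 1 without transcriptome C.

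All 13 protein-coding mRNAs of the mitochondrial genome had both pools below all 3 transcriptomes, and 10 passed the test as lower (median -2.62). ND2, a membrane subunit of complex I, was at 1223 and 2269.6 CPM in the pools against 19548, 19372 and 19865 CPM (log2 fold change -3.49 ± 0.46 SE, adjusted p = 1.91e-06). ATP6 of ATP synthase was at 2219.9 and 3593 CPM in the pools against 34145, 28104 and 30345 CPM (log2 fold change -3.41 ± 0.57 SE, adjusted p = 4.34e-05). COX1 was the most abundant of them in the pools, at 17832 and 22274 CPM in the pools against 26072, 48152 and 33219 CPM, and did not pass (log2 fold change -0.84, adjusted p = 0.134). Neither did COX3 (log2 fold change -0.96, adjusted p = 0.150) and ND5 (log2 fold change -0.77, adjusted p = 0.155). The calls lost when 1 library was left out were those of ATP8 (without pool A or transcriptome B, up to adjusted p = 0.232) and CYTB (without pool A, up to adjusted p = 0.0545). ATP6 and ATP8, ND4 and ND4L, and ND5 and ND6 overlap, and reads of each pair may not have been separated. Together the 13 mRNAs summed to 47189 and 69902 CPM in the pools and 187106, 239468 and 207439 CPM in the transcriptomes, so that the pools lay well below the whole embryo without being empty of them. The light end of the gradients held far more. In F2 their sum was 596729 CPM in gradient A and 561172 CPM in gradient B, and it was down to 32982 and 58051 CPM in F10. Nuclear complex I mRNAs ran from 21488 and 20518 CPM in F2 to 27625 and 29143 CPM in F10.

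**Figure D2:**
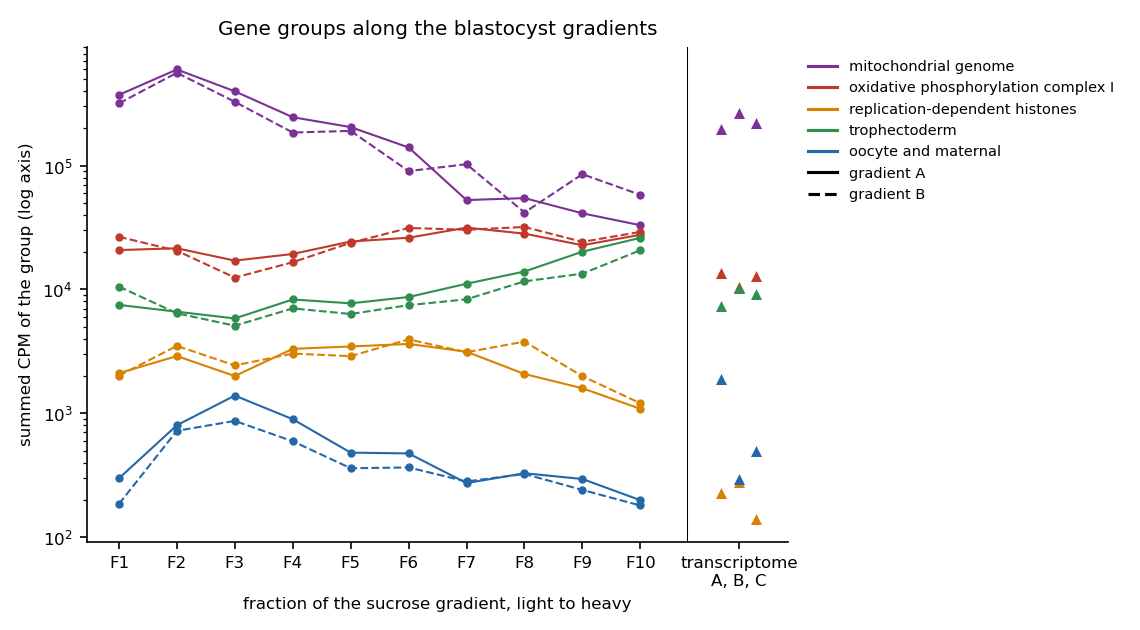
Summed CPM of gene groups (log axis) in fractions F1 to F10 of blastocyst gradients A (solid) and B (dashed), with the 3 transcriptomes as triangles at the right. mRNAs of the mitochondrial genome fell from 596729 and 561172 CPM in F2 to 32982 and 58051 CPM in F10, trophectoderm mRNAs reached their highest sum in F10, and oocyte and maternal mRNAs peaked in F3.

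Proteins that build and supply the organelle had the direction of the nuclear chain. Of the mitochondrial ribosomal proteins, 45 of 77 members tested were higher, 5 lower and 27 did not pass (median 1.21). MRPL36 was at 195 and 206 CPM in the pools against 5.88, 3.32 and 6.4 CPM (log2 fold change 5.27 ± 0.46 SE, adjusted p = 8.04e-09). MRPS12 was at 539.6 and 499 CPM in the pools against 40.6, 37.7 and 51.4 CPM (log2 fold change 3.59 ± 0.29 SE, adjusted p = 2.84e-09). Both pools lay above all transcriptomes in both. Of the import machinery, 13 of 24 members tested were higher, 3 lower and 8 did not pass (median 1.10). TIMM17A, of the inner membrane translocase, was at 78.4 and 93.9 CPM in the pools against 5.0, 3.11 and 6.4 CPM (log2 fold change 4.15 ± 0.37 SE, adjusted p = 1.13e-08). TIMM17B, its paralog, was at 1886 and 2054 CPM in the pools against 222, 152 and 187 CPM (log2 fold change 3.40 ± 0.32 SE, adjusted p = 2.28e-08). Both genes had pools far above the transcriptomes. The receptor TOMM70 of the outer membrane was lower at 50.8 and 73.8 CPM in the pools against 149.6, 163 and 198 CPM (log2 fold change -1.45 ± 0.34 SE, adjusted p = 0.00157). The lower calls moved most when single libraries were left out. Among mitochondrial ribosomal proteins lower members numbered 1 without pool A, 0 without pool B, 3 without transcriptome A and 2 without transcriptome C, with 12 lower when library totals replaced TMM. Among import genes lower members numbered 1 without pool A and 1 without transcriptome C.

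**Figure D3:**
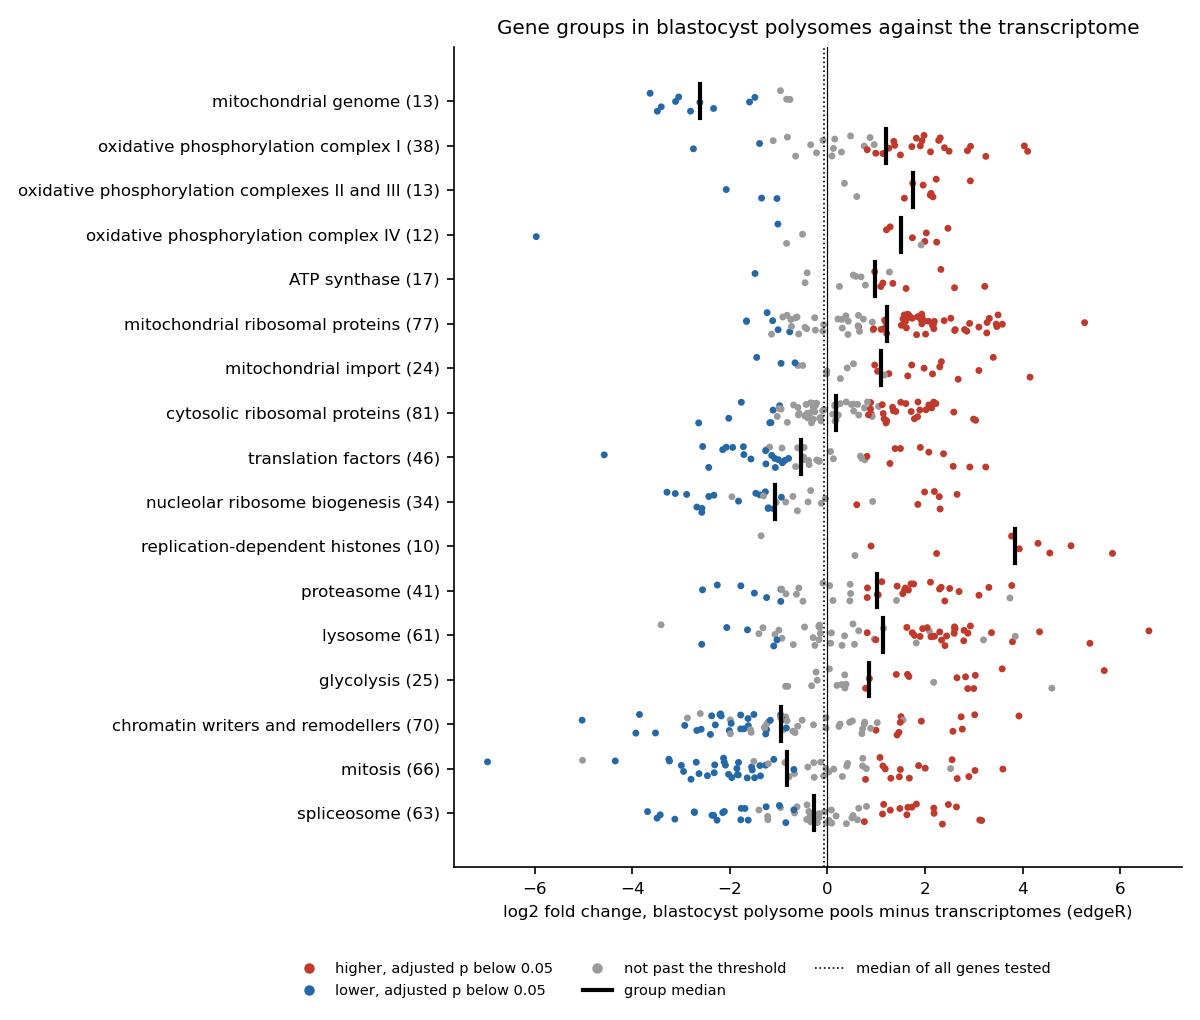
log2 fold change of each tested member of 17 gene groups in blastocyst polysome pools against transcriptomes, with the number of members in parentheses, the group median as a bar and the median of all genes as a dotted line. The mitochondrial genome lies to the left of 0 throughout, nuclear mitochondrial groups and histones lie mostly to the right, and translation factors, nucleolar proteins, chromatin and mitosis genes lean to the left.

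The cytosolic translation machinery did not move as 1 body. For cytosolic ribosomal proteins 27 of 81 members tested were higher, 7 lower and 47 did not pass (median 0.18, but -0.18 with library totals, which called 19 higher and 14 lower, and negative also with thinned counts and without pool B). RPL8 was at 5648 and 7078 CPM in the pools against 806, 704 and 814 CPM (log2 fold change 3.04 ± 0.27 SE, adjusted p = 8.65e-09). RPLP0, the stalk base, was at 4213 and 5301 CPM in the pools against 715, 881 and 773 CPM (log2 fold change 2.59 ± 0.33 SE, adjusted p = 1.38e-06). RPL22L1 was on the other side at 64.4 and 69.2 CPM in the pools against 300.4, 484 and 465 CPM (log2 fold change -2.64 ± 0.49 SE, adjusted p = 0.000155). Ribosomal protein genes have processed copies, and reads may be shared with them. For translation factors 10 of 46 members tested were higher, 18 lower and 18 did not pass (median -0.55). EIF5B, which joins the ribosomal subunits, was at 14.2 and 16.4 CPM in the pools against 612, 231 and 254 CPM (log2 fold change -4.58 ± 0.41 SE, adjusted p = 9.08e-09). EIF3A, a scaffold of the initiation complex, was at 54.1 and 38 CPM in the pools against 277, 302 and 235 CPM (log2 fold change -2.56 ± 0.30 SE, adjusted p = 4.63e-07). EIF6, which keeps the 60S subunit apart, was at 938 and 793 CPM in the pools against 98.5, 103 and 72.8 CPM (log2 fold change 3.25 ± 0.23 SE, adjusted p = 9.44e-10). Initiation factors thus lay on either side. For nucleolar ribosome biogenesis 7 of 34 members tested were higher, 16 lower and 11 did not pass (median -1.08). NCL, the nucleolar protein nucleolin, was at 84.3 and 155 CPM in the pools against 883, 1155 and 1078 CPM (log2 fold change -3.12 ± 0.50 SE, adjusted p = 2.49e-05). POLR1C, a subunit of RNA polymerases I and III, was at 219 and 204 CPM in the pools against 27.3, 32.3 and 40.8 CPM (log2 fold change 2.66 ± 0.51 SE, adjusted p = 0.000232). Lower members numbered 1 without pool A, 4 without pool B and 4 without transcriptome C among ribosomal proteins, and 11 without pool A among translation factors.

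Histone and chromatin genes had medians of opposite sign. Of 44 symbols of replication-dependent histones, 10 were among the deposited counts. Of these 10 genes 8 were higher and 2 did not pass (median 3.85). H1-2, a linker histone, was at 869 and 1494 CPM in the pools against 25.9, 16.8 and 19.2 CPM (log2 fold change 5.84 ± 0.46 SE, adjusted p = 1.49e-09). The list summed to 1748 and 2512 CPM in the pools and 215, 251 and 131 CPM in the transcriptomes. Along the gradients it was 2897 and 3499.7 CPM in F2, 3631 and 3950.3 CPM in F6 and 1087 and 1205 CPM in F10, so that the light and middle fractions also lay above the whole embryo. Most of these mRNAs lack a poly(A) tail and their genes have near-identical copies, so both their level in libraries of polyadenylated RNA and the split between copies are uncertain. Among chromatin writers and remodellers 11 of 70 members tested were higher, 27 lower and 32 did not pass (median -0.96, with 7 higher under library totals). UHRF1, the partner of maintenance DNA methylation, was at 2.74 and 1.06 CPM in the pools against 37.3, 19.1 and 26.6 CPM (log2 fold change -3.85 ± 0.47 SE, adjusted p = 8.28e-07). CHD6, a remodeller, was at 3.96 and 5.87 CPM in the pools against 77, 88.5 and 59.4 CPM (log2 fold change -3.93 ± 0.59 SE, adjusted p = 1.23e-05). The demethylase KDM6B was at 0.653 and 0.128 CPM in the pools against 16.5, 7.46 and 15 CPM (log2 fold change -5.03 ± 1.29 SE, adjusted p = 0.00329). The 3 transcriptomes exceeded both pools in each. DOT1L, the H3K79 methyltransferase, was higher at 27.7 and 42.9 CPM in the pools against 2.06, 1.66 and 3.2 CPM (log2 fold change 3.93 ± 0.83 SE, adjusted p = 0.000616). Higher members numbered 7 without pool A, 7 without transcriptome B and 7 without transcriptome C.

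Cell cycle genes leaned to the transcriptome in mitosis, while DNA replication genes had similar counts on either side. For mitosis 15 of 66 members tested were higher, 30 lower and 21 did not pass (median -0.83). CEP290, a centrosome and cilium protein, had 3 counts in the pools against 124 in the transcriptomes, a scaled ratio of 145 (exact 95% counting interval 48.6 to 714). SMC4, a condensin subunit, was at 31.8 and 35.5 CPM in the pools against 328, 329.7 and 304 CPM (log2 fold change -3.25 ± 0.32 SE, adjusted p = 3.51e-08). Both CEP290 and SMC4 had transcriptomes above pools. CDC20, the activator of the anaphase complex, was at 553 and 316 CPM in the pools against 55.8, 65.1 and 53.4 CPM (log2 fold change 2.90 ± 0.28 SE, adjusted p = 3.53e-08). CCND2, a G1 cyclin, was at 299 and 219.7 CPM in the pools against 25.6, 14.7 and 24 CPM (log2 fold change 3.60 ± 0.59 SE, adjusted p = 3.42e-05). These 2 regulators had pools above all transcriptomes. For DNA replication 16 of 51 members tested were higher, 14 lower and 21 did not pass (median -0.08), and with library totals 10 were higher and 17 lower. CDT1, the licensing factor, was at 34.2 and 23.4 CPM in the pools against 0.294, 0.829 and 1.0 CPM (log2 fold change 5.27 ± 0.63 SE, adjusted p = 5.66e-07). ORC5 of the origin complex was at 2.65 and 9.11 CPM in the pools against 53.5, 26.5 and 25.2 CPM (log2 fold change -2.57 ± 0.51 SE, adjusted p = 0.000326). Lower members numbered 18 without pool B for mitosis and 9 without pool A for replication. Of the splicing genes, 16 of 63 members tested were higher, 19 lower and 28 did not pass (median -0.28), and with library totals 14 were higher and 25 lower. SNRPD1, a core protein of the small nuclear ribonucleoproteins, was at 15 and 43.6 CPM in the pools against 411, 267 and 268 CPM (log2 fold change -3.43 ± 0.58 SE, adjusted p = 5.25e-05). SF3B5 of the branch point complex was at 761 and 862 CPM in the pools against 121, 73.8 and 85.2 CPM (log2 fold change 3.12 ± 0.35 SE, adjusted p = 2.48e-07).

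In protein turnover and the secretory route, higher members outnumbered lower ones for the proteasome, lysosome and endoplasmic reticulum but not for chaperones. For the proteasome 21 of 41 members tested were higher, 7 lower and 13 did not pass (median 1.02). PSMD13, a lid subunit, was at 232 and 161 CPM in the pools against 14.7, 12.4 and 15.8 CPM (log2 fold change 3.78 ± 0.32 SE, adjusted p = 5.46e-09). PSMD12, also of the lid, was at 38.7 and 22.8 CPM in the pools against 145, 204 and 194 CPM (log2 fold change -2.56 ± 0.33 SE, adjusted p = 1.39e-06). The 2 lid subunits thus lay on opposite sides with no overlap between pools and transcriptomes. For lysosomal genes 27 of 61 members tested were higher, 5 lower and 29 did not pass (median 1.15). CTSD, an aspartic protease, was at 957 and 973 CPM in the pools against 47, 38.1 and 56.8 CPM (log2 fold change 4.35 ± 0.62 SE, adjusted p = 5.41e-06). GM2A, the ganglioside activator, was at 737 and 779 CPM in the pools against 16.8, 19.5 and 18.2 CPM (log2 fold change 5.38 ± 0.48 SE, adjusted p = 1.04e-08). Pools and transcriptomes were far apart in both. ATP6AP2, an accessory protein of the proton pump, was lower at 58 and 43.3 CPM in the pools against 205, 342 and 359.9 CPM (log2 fold change -2.58 ± 0.51 SE, adjusted p = 0.000278). For translocation and glycosylation in the endoplasmic reticulum 15 of 38 members tested were higher, 7 lower and 16 did not pass (median 0.45). SEC61A1, the channel, was at 395 and 393 CPM in the pools against 75.2, 71.5 and 83 CPM (log2 fold change 2.36 ± 0.36 SE, adjusted p = 1.18e-05). Its partners SEC62 and SEC63 had the other direction. SEC62 was at 22.5 and 32.4 CPM in the pools against 334, 241 and 273 CPM (log2 fold change -3.36 ± 0.49 SE, adjusted p = 7.89e-06). SEC63 was at 17 and 24.6 CPM in the pools against 99.9, 149.6 and 156 CPM (log2 fold change -2.70 ± 0.38 SE, adjusted p = 5.41e-06). The channel and its partners did not overlap in direction. For chaperones 9 of 46 members tested were higher, 14 lower and 23 did not pass (median -0.52). HSPB1, a small heat shock protein, was at 3479.6 and 4175 CPM in the pools against 783, 537 and 537 CPM (log2 fold change 2.63 ± 0.35 SE, adjusted p = 2.31e-06). HSPD1, the mitochondrial chaperonin, was at 147 and 245 CPM in the pools against 777, 1164 and 1243 CPM (log2 fold change -2.44 ± 0.33 SE, adjusted p = 2.60e-06). Single libraries moved the lower counts, in that lower members numbered 4 without pool B for the proteasome, 3 without pool A for the endoplasmic reticulum and 8 without pool A for chaperones.

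In glycolysis 12 of 25 genes were higher and 13 did not pass (median 0.86). TPI1, triosephosphate isomerase, was at 804 and 775 CPM in the pools against 10.3, 22.6 and 13.2 CPM (log2 fold change 5.68 ± 0.55 SE, adjusted p = 2.96e-08). All transcriptomes lay below both pools for this enzyme. For iron, redox and selenoprotein genes 17 of 38 members tested were higher, 9 lower and 12 did not pass (median 0.45). Their summed level was 47315 and 49286 CPM in the polysome pools and 11926, 13336 and 13686 CPM in the transcriptomes. On the scale of the gradient pools it was higher still outside polysomes. It was 77191 and 105852 CPM in monosomes (F3 to F5) and 56709 and 124288 CPM in free RNA (F1 and F2). GPX1, a glutathione peroxidase, was at 4308 and 4425 CPM in the pools against 169.6, 156 and 191 CPM (log2 fold change 4.66 ± 0.35 SE, adjusted p = 9.44e-10). The mitochondrial thioredoxin gene TXN2 was at 1305 and 1340.4 CPM in the pools against 152, 112 and 142 CPM (log2 fold change 3.29 ± 0.25 SE, adjusted p = 1.46e-09). The pools were nearly equal in these 2 antioxidant genes. GCLC, the rate-limiting enzyme of glutathione synthesis, was at 15.2 and 6.55 CPM in the pools against 83.5, 85.8 and 103 CPM (log2 fold change -3.06 ± 0.47 SE, adjusted p = 1.40e-05). FTH1, the ferritin heavy chain whose mRNA carries an iron-responsive element, was at 8751 and 11659 CPM in the pools against 2926, 4305 and 3767 CPM (log2 fold change 1.48 ± 0.38 SE, adjusted p = 0.00330) and yet lower in polysome than in monosome pools (log2 fold change -1.87 ± 0.44 SE, adjusted p = 0.0407). In the monosome fractions F3 to F5 it was at 22853 and 46370.3 CPM, scaled with the factors of the gradient pools. FTH1 thus lay above its polysome level in monosomes and below it in whole embryos. PRDX2, a peroxiredoxin and with ACTB and FTH1 among the 5 highest genes of the pools, was at 11035 and 8932 CPM in the pools against 2298, 1821 and 2255 CPM (log2 fold change 2.23 ± 0.30 SE, adjusted p = 2.66e-06). ACTB was at 19085 and 18527 CPM in the pools against 8425, 13242 and 13113 CPM and did not pass (log2 fold change 0.70, adjusted p = 0.0786). For iron and redox genes lower members numbered 5 without pool B and 5 without transcriptome C. For cholesterol synthesis 6 of 22 members tested were higher, 5 lower and 11 did not pass (median 0.60). HMGCS1, an early enzyme of the route, was at 106 and 76.9 CPM in the pools against 459, 861 and 748 CPM (log2 fold change -2.91 ± 0.62 SE, adjusted p = 0.000585). MVK, mevalonate kinase, was at 205 and 212 CPM in the pools against 22.6, 28.2 and 33.6 CPM (log2 fold change 2.89 ± 0.33 SE, adjusted p = 3.16e-07). Here lower members numbered 2 without pool A and 3 without pool B.

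Signalling genes of the mTOR and MAPK routes were mixed, as 18 of 49 members tested were higher, 9 lower and 22 did not pass (median 0.10, negative with library totals at -0.25 and in 4 further settings). AKT1, the kinase upstream of mTOR, was at 106 and 95.2 CPM in the pools against 3.23, 2.28 and 0.600 CPM (log2 fold change 5.66 ± 0.72 SE, adjusted p = 1.40e-06). EIF4EBP1, the repressor of cap-dependent initiation, was at 282 and 314 CPM in the pools against 12.1, 3.73 and 7.0 CPM (log2 fold change 5.31 ± 0.48 SE, adjusted p = 1.19e-08). Both genes had pools far above the transcriptomes. MAP2K1, the kinase MEK1, was at 12.4 and 10.2 CPM in the pools against 91.1, 90.6 and 119 CPM (log2 fold change -3.15 ± 0.39 SE, adjusted p = 9.76e-07). The pools thus exceeded the transcriptomes for AKT1 and EIF4EBP1 and lay below them for MAP2K1. Of the interferon response genes, 8 of 31 members tested were higher, 6 lower and 17 did not pass, and 12 of the 31 had no count in the pools or none in the transcriptomes. IFITM1, an antiviral membrane protein, was at 79.5 and 61.6 CPM in the pools against 3.23, 1.24 and 2.6 CPM (log2 fold change 4.92 ± 0.58 SE, adjusted p = 4.36e-07). STAT2 was at 0.131 and 0.766 CPM in the pools against 9.11, 10.2 and 15 CPM (log2 fold change -4.65 ± 0.87 SE, adjusted p = 0.000166). Here lower members numbered 3 without pool A and 3 without pool B.

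The epithelium that pumps the cavity was examined through junctions, pumps and matrix. For cell junction and adhesion 8 of 35 members tested were higher, 10 lower and 17 did not pass (median -0.36). The tight junction gene CLDN7 was at 142 and 108 CPM in the pools against 7.05, 3.52 and 4.4 CPM (log2 fold change 4.65 ± 1.08 SE, adjusted p = 0.00142). CLDN3, of the same family, was at 146 and 109 CPM in the pools against 6.47, 2.69 and 3.8 CPM (log2 fold change 4.89 ± 1.11 SE, adjusted p = 0.00111). The desmosome gene PKP3 was higher as well (log2 fold change 6.27 ± 1.19 SE, adjusted p = 0.000216), and both pools exceeded all transcriptomes in the 3 genes. CTNNA1, alpha-catenin of adherens junctions, was at 84.5 and 81.4 CPM in the pools against 573, 671 and 721 CPM (log2 fold change -2.98 ± 0.52 SE, adjusted p = 7.15e-05). RDX, a linker of actin to the membrane, was at 17.1 and 31.7 CPM in the pools against 241, 211 and 220.3 CPM (log2 fold change -3.20 ± 0.40 SE, adjusted p = 9.70e-07). For the sodium pump, channels and aquaporins 3 of 19 members tested were higher, 3 lower and 13 did not pass (median 0.49). AQP3, a water and glycerol channel, was at 207 and 201 CPM in the pools against 158, 118 and 160.0 CPM and did not pass (log2 fold change 0.49, adjusted p = 0.375). Its pools lay above the transcriptomes by little. AQP11 was higher at 96.3 and 97.2 CPM in the pools against 12.1, 9.12 and 5.6 CPM (log2 fold change 3.45 ± 0.68 SE, adjusted p = 0.000292), and so was the pump regulator FXYD6 (log2 fold change 3.68 ± 0.55 SE, adjusted p = 1.10e-05). CFTR, a chloride channel, had no count in the pools and 2.94, 0.829 and 1.4 CPM in the transcriptomes, at least 24.6-fold lower. For matrix and integrins 6 of 34 members tested were higher, 7 lower and 21 did not pass (median -0.73). The proteoglycan SDC4 was at 190.3 and 182 CPM in the pools against 11.8, 20.5 and 14.4 CPM (log2 fold change 3.58 ± 0.68 SE, adjusted p = 0.000221). Here higher members numbered 3 without transcriptome C and lower members numbered 3 without pool A, 3 without pool B and 4 without transcriptome C.

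Polysome and monosome pools were then compared within the gradients. In the model of 36 gradient pools with each gradient as a block, 94 of 15049 genes were higher in F8 to F10 than in F3 to F5 of blastocysts (0.625%) and 123 were lower (0.817%), with 2018 at an unadjusted p below 0.05. Without gradient B the counts were 51 and 65. All 13 mitochondrially encoded mRNAs were among the lower ones, from -3.14 for ATP8 to -1.86 for COX1 on the log2 scale. So were 11 of the oocyte and maternal members, for instance BTG4 at -3.96 ± 0.54 SE, adjusted p = 0.000859 and KPNA7, an oocyte importin, at -4.39 ± 0.41 SE, adjusted p = 1.15e-05. KRT19 was the 1 trophectoderm member higher in polysomes than in monosomes (log2 fold change 2.33 ± 0.44 SE, adjusted p = 0.0110). For nuclear complex I genes the median polysome minus monosome difference was 0.53 on the log2 scale, beside 0.14 over all genes. Their summed level was 21248 and 21598 CPM in the free pools (F1 and F2) and 20764 and 17215 CPM in the monosome pools, scaled with the factors of the gradient pools. These sums exceed those of the transcriptomes, but the 2 models have different scaling factors. As a share of library counts, complex I genes made up 1.49% and 1.31% of free pools A and B. The share was 1.36%, 0.909% and 1.14% in the transcriptomes, so free pool B lay below transcriptome A. Free, monosome and polysome pools all lay above the transcriptomes on either scale for complexes II and III, complex IV, glycolysis, and iron and redox genes. Glycolysis genes summed to 18613 and 29535 CPM in the free pools against 7833, 7529 and 7957 CPM in the transcriptomes. The proteasome differed, at 6596 and 6124 CPM in the free pools against 7412, 6003 and 7161 CPM in the transcriptomes. Sedimentation, input and kind of library cannot be told apart in a comparison of gradient pools with transcriptomes.

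The blastocyst difference was then set against that of the earlier stages in the same model. Relative to morulae, 883 genes had a more positive polysome difference in blastocysts (6.04% of the genes tested) and 912 a more negative one (6.24%). Relative to the mean of the other 5 stages the numbers were 1904 (13%) and 1933 (13.2%). Without pool B the genes below morulae numbered 417 and those below the other stages 1140. With the library letter as a replicate block, 1 gene was above and 5 below morulae, and 450 were above and 540 below the other stages. The blastocyst transcriptomes held 3269386 to 5256282 counts and those of the other stages 8818251 to 11812567. Depth and stage cannot be told apart in these contrasts. The proteasome leaned upward, with 26 of 41 members above the other stages and 1 below, and its median ran from -0.69 in GV oocytes through 0.19 in morulae to 1.02. Mitochondrial ribosomal proteins had 30 above and 4 below, translation factors 21 and 5, and genes of translocation and glycosylation 16 and 1. Fewer members differed from morulae. The proteasome had 6 above and 0 below morulae, mitochondrial ribosomal proteins 12 and 1, translation factors 8 and 2, and translocation and glycosylation 10 and 0. The median of translation factors was -0.58 in morulae and -0.55 in blastocysts. Without pool B the mitochondrial ribosomal proteins above numbered 19. Of the oocyte and maternal genes 15 of 26 were below the other stages, and 10 without transcriptome A. Their median was 1.64 at the 8-cell stage, 1.32 in morulae and -1.82 in blastocysts. Signalling genes of the mTOR and MAPK routes had a median of 1.93 in morulae and 0.10 in blastocysts, with 9 members above the other stages and 12 below (7 and 7 without pool B). The mitochondrial genome had medians from -3.20 in MII oocytes to -1.93 at the 8-cell stage, and 1 member above the other stages (COX1) and 1 below (ND3). The call of COX1 was lost without transcriptome A (adjusted p = 0.0819), and no member was above without pool B or transcriptome C or below without pool A.

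**Figure D4:**
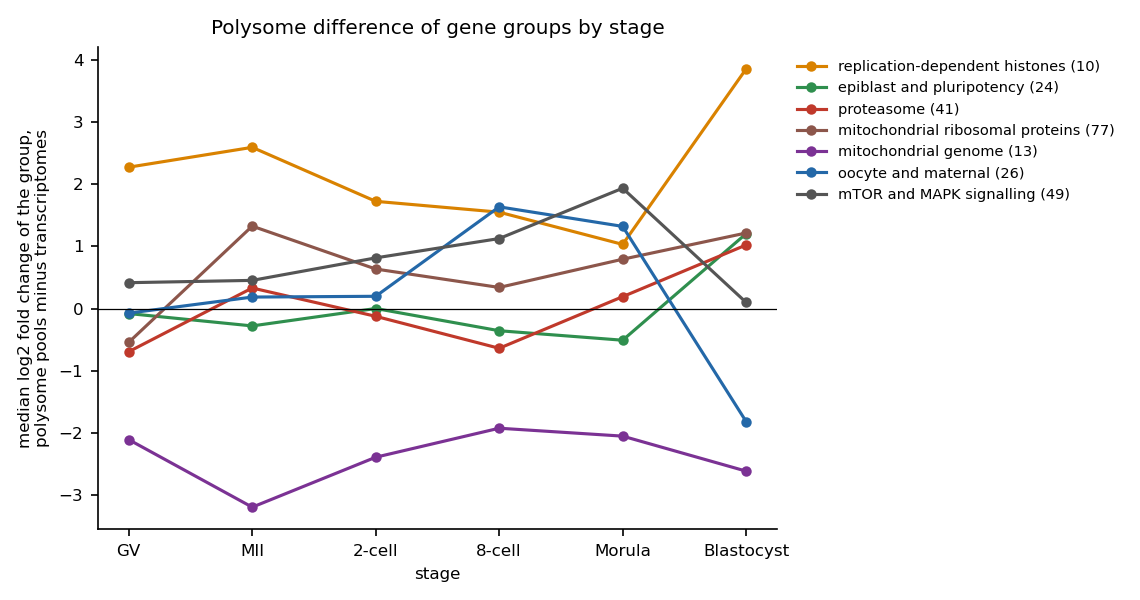
Median log2 fold change of 7 gene groups in polysome pools against transcriptomes at each stage, with the number of members tested in parentheses. Histone, proteasome and epiblast groups had their highest median in blastocysts, oocyte and maternal genes their lowest, and the mitochondrial genome stayed below -1.9 at all 6 stages.

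Single genes changed sides between stages. GATA2 was at 33.9 CPM in the pools and 12.8 CPM in the transcriptomes of morulae and at 61 CPM in the pools and 408 CPM in the transcriptomes of blastocysts. Its difference from the mean of the other stages was -4.34 ± 0.53 SE, adjusted p = 2.88e-06, and its mean pool level stayed between 25.5 and 73.2 CPM at all 6 stages. UHRF1 was at 1264 CPM in the pools and 291 CPM in the transcriptomes of 2-cell embryos and at 1.9 CPM in the pools and 27.7 CPM in the transcriptomes of blastocysts, a difference from the other stages of -5.44 ± 0.53 SE, adjusted p = 2.19e-07. In both genes the pool mean exceeded the transcriptome mean at the 2-cell and 8-cell stages and in morulae, and lay below it in blastocysts. TM7SF2, a sterol reductase, was at 283 CPM in the pools and 10.7 CPM in the transcriptomes of GV oocytes and at 1.39 CPM in the pools and 27.3 CPM in the transcriptomes of blastocysts, with 2.74 and 0.0426 CPM in pools A and B.

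Other genes had a larger difference in blastocysts than before. BNIP3, a receptor of mitophagy, was at 56.6 CPM in the pools and 22 CPM in the transcriptomes of morulae and at 114 CPM in the pools and 1.17 CPM in the transcriptomes of blastocysts (difference from the other stages 5.85 ± 0.50 SE, adjusted p = 4.48e-08). MEAF6, a subunit of histone acetyltransferase complexes, was at 17.2 CPM in the pools and 34.5 CPM in the transcriptomes of morulae and at 31.5 CPM in the pools and 2.14 CPM in the transcriptomes of blastocysts. In both the whole-embryo mean was smaller in blastocysts and the pool mean larger. The same was seen for GM2A, at 562 CPM in the pools and 179 CPM in the transcriptomes of morulae and at 758 CPM in the pools and 18.1 CPM in the transcriptomes of blastocysts (difference 3.71 ± 0.49 SE, adjusted p = 8.14e-06). POU5F1 had a positive fitted log2 fold change at every stage, from 0.85 in 2-cell embryos to 2.63 in morulae and 3.17 in blastocysts (difference 1.67 ± 0.39 SE, adjusted p = 0.00276). EPHX2, an epoxide hydrolase, was at 0 CPM in the pools and 39.4 CPM in the transcriptomes of 8-cell embryos. In morulae its pools, at 18.3 CPM, were already close to the transcriptomes, at 19 CPM (log2 fold change -0.05). The blastocyst values were 44.5 and 35.7 CPM in the pools against 31.2, 21.8 and 29.4 CPM, which did not pass (log2 fold change 0.55, adjusted p = 0.579). COX8B and the cadherin gene CDH26 also ranked among the largest stage differences, and in CDH26 the blastocyst pools held 24.2 and 26.6 CPM. CDH26 was at 13.4 CPM in the pools and 12.8 CPM in the transcriptomes of morulae, and at 1.37 CPM in the transcriptomes of blastocysts.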

How the data were processed

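Sucrose gradient fractions and whole embryos were sequenced from Smart-seq libraries. The deposited values are expected counts, which the authors estimated with Salmon for 16706 gene symbols in 138 libraries. The methods name the genome build ARS-UCD1.2 and the submitters' processing notes UMD3.1, so coordinates were not used. Because 11.7% of the values were not whole, they were rounded. The 3 fractions F8 to F10 were summed within each gradient. 12 pools and 18 transcriptomes of all 6 stages entered one quasi-likelihood model with a term for each stage and kind of library (edgeR 4.0.16, limma 3.58.1, R 4.3.3). TMM factors and the edgeR expression filter were used, 14612 genes were tested, and p-values were adjusted by Benjamini-Hochberg over all of them with a threshold of 0.05. Stage differences were contrasts of that model. Polysome and monosome pools were compared in a second model of 36 gradient pools with the gradient as a block (15049 genes). Tables and figures were made with Python 3.11.15, numpy 2.4.6, pandas 2.3.3, scipy 1.17.1 and matplotlib 3.10.9.

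The members and all gene lists were chosen with earlier results of these data known. Genes were named if they were, with adjusted p below 0.05, no overlap between pools and transcriptomes and a mean of at least 10 CPM, among the 8 largest fold changes in a direction or the 4 largest differences from the other stages, if they were among the 3 largest changes of a list in a direction, if they belonged to the lineage, mitochondrial genome or pump lists, if they were among the 5 most abundant, or if the study itself names them for blastocysts (RAB17, SMIM7, POLD4). Some genes that this rule names are not reported here. Symbols were matched to RefSeq (ARS-UCD2.0), which found 16373 of 16706, to look up overlapping genes. Intervals and floors of 3 counts cover counting error only. The labels do not say that embryos of different letters came from separate parents, so p-values measure the spread between these libraries. On simulated counts of this depth, 56.7% of genes changed by 3 on the log2 scale were called in the polysome comparison (33.3% at 2) and 8.82% in the monosome comparison (0% at 2). The polysome simulation changed few genes, 67 of 14612 by 3 and 66 by 2, whereas 40.1% were called in the data. As the adjusted threshold depends on that share, recovery in the data can differ.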

Additional observations from a re-analysis of the deposited data

Results flagged for a closer look

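The polysome difference of blastocysts differed from that of other stages, by the interaction contrast of the edgeR model, in 883 genes above and 912 below morulae, and in 1904 above and 1933 below the mean of the other 5 stages. At an unadjusted p below 0.05 the counts were 3948 and 5318.

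The named genes with the largest such differences above the other stages were CDH26 (6.06 ± 1.42 SE, adjusted p = 0.00283), EPHX2 (6.03 ± 0.91 SE, adjusted p = 4.77e-05), BNIP3 (5.85 ± 0.50 SE, adjusted p = 4.48e-08) and MEAF6 (5.52 ± 0.51 SE, adjusted p = 1.09e-07), all on the log2 scale. In CDH26 the call of the blastocyst comparison itself was lost without transcriptome C (adjusted p = 0.0516). EPHX2 had no count in the pools of 2-cell and 8-cell embryos and CDH26 none in those of 8-cell embryos, so the sizes of both depend on the prior count. For EPHX2 the fitted log2 fold change was -0.05 in morulae and 0.55 in blastocysts.

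The largest below the other stages were BCAR4 (-11.73 ± 1.95 SE, adjusted p = 0.000111), OOSP2 (-9.50 ± 2.14 SE, adjusted p = 0.00193), TM7SF2 (-8.72 ± 1.25 SE, adjusted p = 1.92e-05) and COX8B (-7.82 ± 2.05 SE, adjusted p = 0.00622). BCAR4 and OOSP2 had 0 and 1 counts in the blastocyst pools and their fitted values, which depend on the prior count, are no measure of size. Without transcriptome A their differences were -9.40 (adjusted p = 0.000230) and -6.27 (adjusted p = 0.0131). The level of COX8B in the transcriptomes of the other stages was at most 0.513 CPM.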

How the results depend on the processing

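Of 84 values of the 8 counts over all genes under other settings, 67 stayed within 1.5 times the reported count and 17 did not. Genes higher in blastocyst polysomes numbered 972 with a fold change above 8 also required, and genes lower 1328. Genes lower numbered 1759 with a mean of at least 10 CPM, and 1910 to 2588 when 1 library was left out. Left-out libraries gave 417 to 785 genes below morulae, 1140 to 1653 below the other stages, 51 to 124 higher and 65 to 94 lower in polysomes than in monosomes. Library totals gave 153 genes higher in polysomes than in monosomes. Calls by DESeq2 numbered 2881 and 3710, and by limma-voom 2671 and 3707, higher and lower.

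Letters A and B name both gradients and transcriptomes. The deviations of pairs with the same letter correlated at -0.0687 to 0.0355, and no pair exceeded 0.1. At each stage the deviations of pools A and B from their mean mirror each other, so their values are not independent. The check therefore cannot decide whether a letter marks shared embryos. With the letter as a replicate block, 1599 genes were higher and 1029 lower, 1 was above and 5 below morulae, and 450 were above and 540 below the other stages. The polysome and monosome model without its replicate block gave 37 higher and 45 lower. The block took the call from 63 named genes.

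Of 5378 values of 325 named genes over 17 settings, 5008 kept their direction and side of the threshold, 254 lost the call, 115 gained it and 1 reversed, AQP7 at -6.35 when F9 and F10 alone formed the pool. The cause of these changes was not tested. Of 228 named genes called, 57 lost the call without some library. List counts under other settings were added after the data were seen. List medians changed sign in some settings for hypoblast, cytosolic ribosomal protein, sodium pump, matrix, signalling, interferon and DNA replication genes. The median of all genes was -0.23 with RLE factors, -0.27 with thinned counts and -0.24 with DESeq2. Of the tested genes, 635 had no count in the transcriptomes and 1895 none in the deeper pools, and for these depth allows a bound only.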
